A study of Mus musculus with 12 samples.

Results

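Autophagy is the route by which a cell wraps a stretch of its cytoplasm in a double membrane, the autophagosome, and delivers it to the lysosome for breakdown. The genes described here are 38 genes of that route in the mouse: 5 of the initiation complex, 6 of the lipid kinase complex that nucleates the membrane, 7 of membrane expansion, 10 of the conjugation machinery, 5 of the ATG8 family and 5 cargo receptors. They were chosen by name for their role, as the rows of the deposited count files whose gene name is one of the 38, out of 49315 genes in all. All 38 were found, and all 38 passed the filter on low counts. Their levels were measured by RNA sequencing in wild-type MIN6 cells, an insulin-secreting line from a mouse insulinoma. The 12 libraries form 4 groups of 3. Rap cells received amino acids and "Rap" for 3 h after being deprived of them. Re-added cells received amino acids alone for 3 h after being deprived. Starved cells went without amino acids for 16 h, and the last group is the control. The cells of all 4 groups were of 1 line and 1 genotype and were grown in the same medium with serum and glutamine. The labels do not spell out Rap or give its dose, and they do not say what the medium without amino acids held and how long Rap cells and re-added cells had been without amino acids. Nor is it stated that the libraries of 1 group are separate cultures: p-values cover the spread among libraries, which may be technical. The title of the series names mTORC1, the kinase complex that responds to amino acids, and Pdx1. The main comparisons set starved cells against control cells, re-added cells against starved cells, and Rap cells against re-added cells.

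In fed cells mTORC1 phosphorylates ULK1 and ATG13 and keeps the initiation complex inactive, and amino acid shortage releases it. The Beclin 1 and VPS34 lipid kinase complex then marks the membrane, WIPI proteins and ATG2 lipid transporters extend it, and a pair of ubiquitin-like conjugation systems couples ATG8 proteins such as LC3B and GABARAPL1 to its lipids, where receptors such as p62 hook on cargo. Several of these genes are also regulated at transcription, by TFEB and TFE3 through E-box motifs and by FOXO factors, and autophagy is known to be needed in mouse β-cells for normal insulin secretion. Transcript levels do not measure the flow of material through the pathway.

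The libraries held 18555958 to 25631056 counted reads. In the files the summed level of 11 β-cell markers was 36080 to 39310 CPM (here reads relative to the raw library total) in Rap cells, 31460 to 36690 CPM in re-added cells, 34090 to 36290 CPM in starved cells and 41210 to 55470 CPM in control cells, and all 11 were detected. Markers of other cells differed between libraries, also within groups: the sum of 25 fibroblast, leukocyte and endothelium markers was 102.3 to 107.5 CPM in Rap cells, 98.3 to 490.2 CPM in re-added cells, 108.1 to 1129 CPM in starved cells and 1165 to 1397 CPM in control cells. The high library of the re-added cells is replicate 1, and in starved cells replicate 1 and replicate 3 were high while replicate 2 was low. The 25 did not differ by like factors. C1qa had 798, 781 and 926 counted reads in Rap cells and 2207, 2049 and 1853 in control cells. Ptprc had 25, 33 and 32 in Rap cells and 1034, 937 and 942 in control cells. None of the 25 was at 0 in every library, and 23 of them exceeded 5 CPM in at least 1 library. A set of 5 lung epithelium markers moved with them, at 36.2 to 44.1 CPM in Rap cells, 48.8 to 647.5 CPM in re-added cells, 74.7 to 1378 CPM in starved cells and 1403 to 1672 CPM in control cells. The labels name no such cells, and where the RNA of these markers came from was not tested. In bulk RNA fewer cells of a type and less RNA per cell cannot be told apart. Counts of called autophagy genes are given below also between libraries of like marker level and with the marker sum as a covariate.

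Of the 38 genes, 32 differed among the 4 groups in 1 edgeR F test at an adjusted p under 0.05, where 71.9% of the 16844 tested genes did. The 6 that missed it were Becn1, Atg9a, Atg4b, Atg5, Atg7 and Map1lc3a. All adjusted p-values are from the edgeR quasi-likelihood test, adjusted by Benjamini-Hochberg over the 16844 genes, and a gene is called at 0.05. In starved against control cells 22 of the 38 were called higher, against 24.3% of all genes tested, and 3 were called lower, against 14.6%. The median log2 fold change was 0.33 over the 38 genes and 0.01 over all tested genes. In re-added against starved cells 3 were called higher, against 18.4% of all genes, and 22 lower, against 18.8%, with a median of -0.43 over the 38 and -0.06 over all. In Rap against re-added cells 13 were called higher, against 4.55% of all genes, and 1 lower, against 3.43%, with a median of 0.29 over the 38 and 0.00 over all. Starved cells are the denominator of 1 comparison and the numerator of another, as are re-added cells, so the opposite signs of neighbouring comparisons are not independent.

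With upper-quartile scaling the median of all tested genes in starved against control cells was -0.13. The split of the 38 genes was 18 higher and 6 lower, and that of all 16844 tested genes was 2961 higher and 3679 lower. Between libraries of like marker level, the counts were 14 higher and 2 lower in starved replicate 1 against control cells, 1 higher and 19 lower in re-added replicates 2 and 3 against starved replicate 2, and 12 higher and 1 lower in Rap cells against re-added replicates 2 and 3. The single starved library is assumed in these fits to vary as the other libraries do. Fewer libraries enter these fits and fewer of all genes were called, so their counts cannot be set against the all-gene shares given above. In the fits with a single starved library the counts do not show how the 38 genes stand against all genes. In Rap cells against re-added replicates 2 and 3, 509 of all 17278 tested genes were called higher and 535 lower. With the marker sum as a covariate the counts were 16 higher and 4 lower in starved against control cells, 2 higher and 23 lower in re-added against starved cells, and 14 higher and 1 lower in Rap against re-added cells. Over all 16844 genes the counts with the covariate, in the same order, were 2907 and 2328, 2820 and 3445, and 885 and 856. Some of the smaller counts of the 38 genes changed when 1 library was left out. In starved against control cells 5 genes were called lower without control replicate 3. In re-added over starved cells 1 gene was called higher without starved replicate 1 or 3, re-added replicate 1 or 2 or Rap replicate 1 or 2, and none was called lower in Rap against re-added cells when any single Rap library, control replicate 1 or re-added replicate 2 or 3 was left out.

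By these calls the 38 genes fall into few patterns. The most common one, higher in starved over control, lower in re-added against starved and higher in Rap over re-added cells, held 12 genes: Ulk1, Atg13, Atg14, Pik3c3, Wipi1, Wipi2, Wdr45, Map1lc3b, Gabarapl1, Sqstm1, Nbr1 and Calcoco1. Another 7 shared the first and second call without the third, namely Ulk2, Rb1cc1, Pik3r4, Uvrag, Atg2a, Atg12 and Optn. Ambra1, Atg2b and Atg4c had the first call alone. Atg10 and Gabarap were called lower in re-added cells alone, and Atg101 lower in re-added and higher in Rap cells. Vmp1 and Atg4a were called lower in starved and higher in re-added cells, and Atg3 was called in both and again lower in Rap cells. The remaining 10 were called in none of the 3 comparisons: Becn1, Atg9a, Atg4b, Atg4d, Atg5, Atg7, Atg16l1, Map1lc3a, Gabarapl2 and Tax1bp1.

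**Figure D1:**
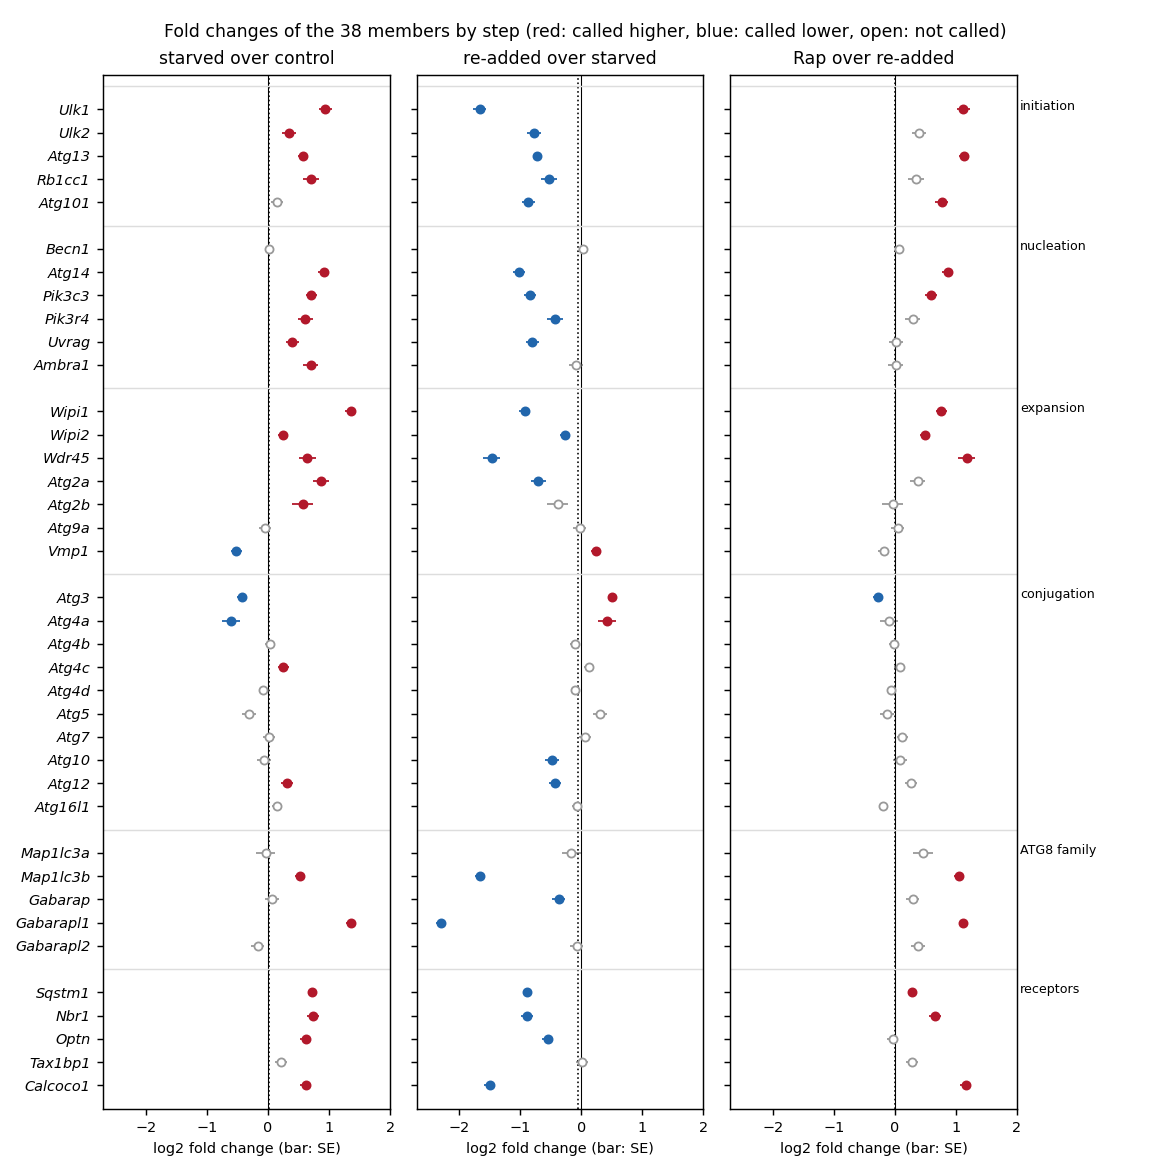
Log2 fold changes of the 38 genes by step in starved over control, re-added over starved and Rap over re-added cells (points, with bars for 1 SE). Filled red points are genes called higher, filled blue points genes called lower, open points genes not called, and the dotted line is the median of all tested genes. Most filled points of the initiation, nucleation, expansion, ATG8 and receptor genes lie right of 0 in the first panel, left in the second and right in the third, while the conjugation genes scatter around 0.

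The promoters of the 38 genes were searched for letters that factors of this pathway are known to recognise, since the genes moved in groups. RefSeq windows from 250 bases before to 50 bases after the start site, on GRCm38.p6, the build of the count files, were at hand for 32 of the 38 genes (38 windows). The E-box CACGTG, the core of the site that TFEB and TFE3 bind, was read on both strands and occurs in 7.15% of all 32851 windows. It was found in windows of 4 genes, Atg14, Atg3, Atg7 and Atg5, shown here as 60 bases each with the E-box in capitals, 5′ to 3′ on the gene's strand.
Atg14 (chr14:47568400-47568459, minus strand): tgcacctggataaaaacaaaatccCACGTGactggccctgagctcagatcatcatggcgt
Atg3 (chr16:45158711-45158770, plus strand): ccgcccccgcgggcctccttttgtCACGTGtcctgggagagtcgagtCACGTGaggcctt
Atg7 (chr6:114670940-114670999, plus strand): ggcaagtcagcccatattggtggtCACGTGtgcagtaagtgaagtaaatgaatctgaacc
Atg5 (chr10:44268301-44268360, plus strand): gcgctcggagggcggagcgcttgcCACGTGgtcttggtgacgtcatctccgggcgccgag
Atg3 holds the E-box in 2 places. The longer form TCACGTG, which contains the E-box and is nearer to the site known from lysosomal genes, occurs in 3.77% of all windows and on either strand in those of Atg14, Atg3 and Atg7. The forkhead letters GTAAACA, a site type of FOXO factors, occur in 3.65% of all windows and in none of the 38 windows of these 32 genes. The letters TGATGCA, the start of the composite C/EBP and ATF4 site, occur in 3.15% of all windows and in those of Optn and Vmp1. The 4 genes with an E-box did not share a pattern of expression: Atg14 was called higher in starved, lower in re-added and higher in Rap cells, Atg3 was called in the opposite direction each time, and Atg5 and Atg7 were called in none of the 3 comparisons. A match is a description of these letters and not a measured binding site.

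Of the initiation genes 4 of 5 were called higher in starved over control cells, all 5 were called lower in re-added against starved cells, and 3 of 5 were called higher in Rap over re-added cells. For this and the later steps the shares of all genes called so are 24.3%, 18.8% and 4.55%. The shares called in the other direction are 14.6%, 18.4% and 3.43%. Ulk1 (chr5:110784488-110810097, minus strand), the kinase that starts autophagosome formation, had 44.2, 42.9 and 41.5 CPM in Rap cells and 19.5, 17.1 and 22.4 CPM in re-added cells, on TMM-scaled library totals as for all single genes below. Ulk1 had 58.3, 66.1 and 63.4 CPM in starved cells and 30.1, 31.3 and 36.6 CPM in control cells. The 4 groups did not overlap, and their order was starved, Rap, control and re-added. Ulk1 rose by 0.94 on the log2 scale in starved over control cells (SE 0.11, adjusted p = 4.93e-05), fell by 1.67 in re-added against starved cells (SE 0.11, adjusted p = 6.04e-07) and rose by 1.12 in Rap over re-added cells (SE 0.11, adjusted p = 9.33e-05). Atg13 (chr2:91674618-91710576, minus strand), the adaptor of the kinase that mTORC1 also phosphorylates, had 163, 164 and 163 CPM in Rap cells and 76.2, 73.6 and 74.1 CPM in re-added cells. Atg13 had 113, 131 and 125 CPM in starved cells and 79.95, 76.1 and 91.9 CPM in control cells. It was highest in the Rap cells, above every starved library. Atg13 rose by 0.57 on the log2 scale in starved over control cells (SE 0.08, adjusted p = 0.000178), fell by 0.72 in re-added against starved cells (SE 0.08, adjusted p = 2.74e-05) and rose by 1.13 in Rap over re-added cells (SE 0.08, adjusted p = 8.19e-06), and it was also 1.33-fold higher in Rap than in starved cells (adjusted p = 0.00164). Rb1cc1 (chr1:6206197-6276648, plus strand), which encodes the scaffold FIP200, had 54.2, 59.5 and 54.9 CPM in Rap cells and 43.5, 43.7 and 45.7 CPM in re-added cells. Rb1cc1 had 60.2, 73.7 and 57.7 CPM in starved cells and 44.9, 30.9 and 42.02 CPM in control cells. Its starved libraries lay above every control and re-added library, and the lowest starved library lay within the range of the Rap cells. Rb1cc1 changed by 0.70 in starved over control cells (adjusted p = 0.00126) and by -0.53 in re-added against starved cells (adjusted p = 0.00684), while its value of 0.34 in Rap over re-added cells was not called (adjusted p = 0.136, and 0.0283 without control replicate 2). Atg101 (chr15:101284301-101290934, plus strand), which stabilises ATG13, had 30.8, 36.1 and 32 CPM in Rap cells and 19.8, 19.5 and 18.7 CPM in re-added cells. Atg101 had 32.4, 37 and 36.6 CPM in starved cells and 31.4, 36.1 and 28.4 CPM in control cells. The re-added libraries stood below all 9 others, which overlapped. Atg101 fell by 0.87 in re-added against starved cells (adjusted p = 4.94e-05) and rose by 0.77 in Rap over re-added cells (adjusted p = 0.000813). Ulk2, the paralog of Ulk1, was called higher in starved over control cells at 0.34 (adjusted p = 0.0305) and lower in re-added against starved cells at -0.78 (adjusted p = 0.000256). Its call against control was kept in 11 of 23 alternatives and was lost, among others, when control replicate 1 or 2 or any single starved library was left out, with fold changes of 0.20 to 0.47 over all alternatives.

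Of the nucleation genes 5 of 6 were called higher in starved over control cells, 4 of 6 lower in re-added against starved cells and 2 of 6 higher in Rap over re-added cells. Becn1, which encodes Beclin 1, was called in none of the 3. Atg14 (chr14:47540894-47568434, minus strand), which directs the lipid kinase complex to the forming autophagosome, had 23.6, 25.4 and 26.97 CPM in Rap cells and 14.9, 12.9 and 13.9 CPM in re-added cells. Atg14 had 27.03, 29.04 and 28.7 CPM in starved cells and 15.6, 13.6 and 15.8 CPM in control cells. Rap and starved libraries stood well above re-added and control libraries, and only re-added and control libraries overlapped. Atg14 rose by 0.91 on the log2 scale in starved over control cells (SE 0.09, adjusted p = 2.35e-05), fell by 1.03 in re-added against starved cells (SE 0.09, adjusted p = 6.95e-06) and rose by 0.87 in Rap over re-added cells (SE 0.09, adjusted p = 0.000189). Pik3c3 on chromosome 18, the catalytic subunit VPS34, had 78.2, 80.5 and 82.8 CPM in Rap cells and 52.97, 55.8 and 51.4 CPM in re-added cells. Pik3c3 had 85.6, 106 and 96.4 CPM in starved cells and 64.02, 51.7 and 60.2 CPM in control cells. Starved and Rap libraries lay above all re-added and control libraries. Pik3c3 changed by 0.71, -0.84 and 0.59 on the log2 scale in the 3 comparisons in turn (adjusted p = 0.000135, 2.95e-05 and 0.00226). Pik3r4 (chr9:105642978-105687657, plus strand), which encodes the regulatory subunit VPS15, had 40.1, 41.9 and 39.5 CPM in Rap cells and 31.9, 32.5 and 34.9 CPM in re-added cells. Pik3r4 had 39.3, 49.4 and 45.5 CPM in starved cells and 29.9, 23.4 and 34.4 CPM in control cells. Rap and starved libraries overlapped and lay above all re-added and control libraries. Pik3r4 rose by 0.61 in starved over control cells (adjusted p = 0.00246) and fell by 0.43 in re-added against starved cells (adjusted p = 0.017). The second call was lost without starved replicate 3 (adjusted p = 0.0525) or without re-added replicate 2 (adjusted p = 0.0572). It was also lost with limma on log2(TPM + 1) without a minimum (adjusted p = 0.0759). Neither call held between libraries of like marker level, where the values, with a single starved library, were 0.44 and -0.49. Uvrag (chr7:98885021-99141141, minus strand), which takes the place of ATG14 in another form of the lipid kinase complex, had 43.5, 40.7 and 40.1 CPM in Rap cells and 39.9, 42.6 and 40.4 CPM in re-added cells. Uvrag had 62.8, 82.8 and 69.6 CPM in starved cells and 56.4, 46.99 and 60.1 CPM in control cells. Its Rap and re-added libraries overlapped and stood below all starved and control libraries. Uvrag fell by 0.81 in re-added against starved cells (adjusted p = 0.000139) and by 0.79 in Rap against starved cells (adjusted p = 0.000218), and its value in Rap over re-added cells was 0.02 (adjusted p = 0.947). Its rise of 0.39 in starved over control cells (adjusted p = 0.0129) was lost without starved replicate 2 (0.28, adjusted p = 0.0576), with only the 6 libraries, with the marker sum as a covariate (0.25, adjusted p = 0.117) and between libraries of like marker level (0.22, adjusted p = 0.298). Ambra1, which links Beclin 1 to the kinase, rose by 0.70 in starved over control cells (adjusted p = 0.000835) and was still 1.53-fold above control in re-added cells (adjusted p = 0.00217).

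Of the expansion genes, 5 of 7 were called higher and 1 lower in starved over control cells, 1 higher and 4 lower in re-added against starved cells, and 3 higher and none lower in Rap over re-added cells. Wipi1 (chr11:109573331-109611967, minus strand), which reads the lipid that VPS34 makes, had 782, 781 and 727 CPM in Rap cells and 426, 442 and 481 CPM in re-added cells. Wipi1 had 767, 946 and 858 CPM in starved cells and 328, 307 and 371 CPM in control cells. It was the expansion gene with the highest level per length, at 459 ± 31.6 TPM in Rap cells, 291 ± 21.7 TPM in re-added cells, 561 ± 18.9 TPM in starved cells and 203 ± 33.3 TPM in control cells (SD, n = 3 each), and every group stood apart from control. Wipi1 rose by 1.35 on the log2 scale in starved over control cells (SE 0.10, adjusted p = 1.66e-06), fell by 0.93 in re-added against starved cells (SE 0.09, adjusted p = 1.62e-05) and rose by 0.76 in Rap over re-added cells (SE 0.09, adjusted p = 0.000494). Wipi2 (chr5:142627698-142670588, plus strand), which recruits ATG16L1 to the membrane, had 128, 133 and 131 CPM in Rap cells and 90.3, 97.2 and 90.8 CPM in re-added cells. Wipi2 had 102, 124 and 110.3 CPM in starved cells and 98.4, 95.3 and 89.5 CPM in control cells. Rap libraries were above all others, and re-added and control libraries overlapped. Wipi2 rose in Rap over re-added cells by 0.50 (SE 0.08, adjusted p = 0.00203) and was called at 0.24 in starved over control cells (adjusted p = 0.0237) and at -0.27 in re-added against starved cells (adjusted p = 0.0153). The call in starved over control cells was lost without control replicate 3, starved replicate 2 or starved replicate 3 (adjusted p = 0.0664, 0.0948 and 0.0502). It was also lost with RLE factors (0.18, adjusted p = 0.0531), upper-quartile factors (0.10, adjusted p = 0.221), the marker covariate (0.14, adjusted p = 0.277), only the 6 libraries (0.20, adjusted p = 0.115) and libraries of like marker level (0.12, adjusted p = 0.417). The call in re-added against starved cells was lost without re-added replicate 3 (adjusted p = 0.0581) and between libraries of like marker level (adjusted p = 0.068). Wdr45 (chrX:7714333-7728206, plus strand), which encodes WIPI4, had 30.5, 29.6 and 31.9 CPM in Rap cells and 16, 11.1 and 13.5 CPM in re-added cells. Wdr45 had 33.4, 41.1 and 38.1 CPM in starved cells and 24.03, 27.8 and 20.5 CPM in control cells. The re-added libraries were below all others, and Rap cells overlapped neither re-added nor starved cells. Wdr45 rose by 0.64 on the log2 scale in starved over control cells (SE 0.14, adjusted p = 0.00341), fell by 1.47 in re-added against starved cells (SE 0.14, adjusted p = 1.14e-05) and rose by 1.18 in Rap over re-added cells (SE 0.14, adjusted p = 0.000447). Between starved replicate 1 and control cells its rise was 0.49 and was not called (adjusted p = 0.107). Atg2a (chr19:6241668-6262335, plus strand), a lipid transporter, had 36.2, 36.7 and 32.6 CPM in Rap cells and 26.2, 25.9 and 29.1 CPM in re-added cells. Atg2a had 42.1, 44.01 and 46.2 CPM in starved cells and 22.2, 20.3 and 30.02 CPM in control cells. Starved libraries were the highest, Rap libraries came next, and re-added and control libraries overlapped. Atg2a rose by 0.87 in starved over control cells (adjusted p = 0.000281) and fell by 0.70 in re-added against starved cells (adjusted p = 0.00101), with 0.38 in Rap over re-added cells (adjusted p = 0.0976, and 0.0439 and 0.0155 without control replicate 2 or 3). Its paralog Atg2b was called, of the 3 comparisons, in starved over control cells alone, at 0.57 (adjusted p = 0.0196), a call that was lost without starved replicate 2 or 3, with the marker covariate, with only the 6 libraries and between libraries of like marker level (0.37 to 0.76 over all alternatives). Vmp1, a scramblase of the endoplasmic reticulum, took the opposite course, falling by 0.52 in starved against control cells (adjusted p = 0.000536) and rising by 0.24 in re-added over starved cells (adjusted p = 0.0396), the second call being lost without starved replicate 1 or 3, any single re-added library or Rap replicate 1 or 2 (0.18 to 0.30 over all alternatives). Atg9a, the transmembrane scramblase of the seed vesicles, had values of -0.05, -0.03 and 0.04 and was called in none.

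**Figure D2:**
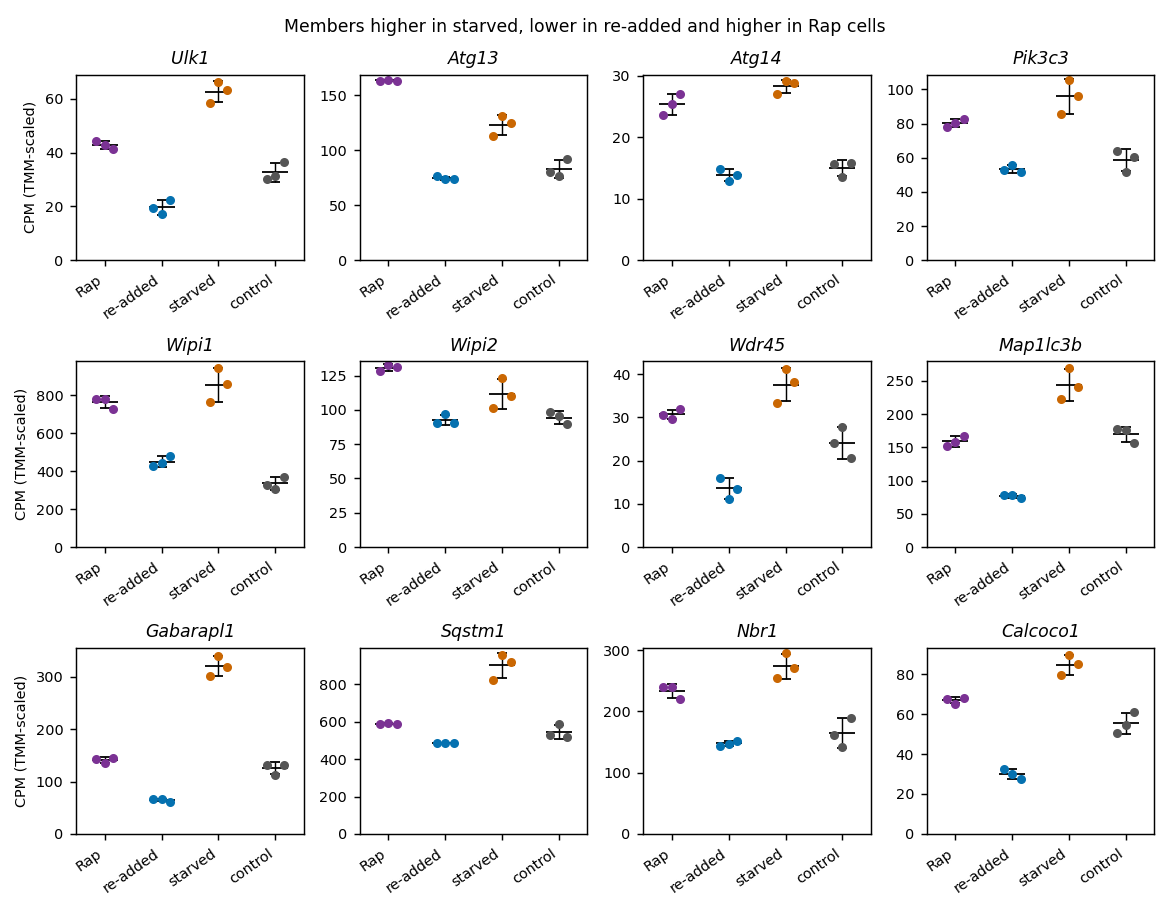
CPM in each library (points) for the 12 genes called higher in starved, lower in re-added and higher in Rap cells, by group, with the mean and 1 SD (bars, n = 3). The vertical axes are linear and start at 0, and in each panel the re-added libraries lie below all Rap and all starved libraries.

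Of the 10 conjugation genes 2 were called higher and 2 lower in starved against control cells, 2 higher and 2 lower in re-added against starved cells, and none higher and 1 lower in Rap against re-added cells. In starved against control cells that is 20% and 20%, near the 24.3% and 14.6% of all genes. In re-added against starved cells it is 20% and 20%, near the 18.4% and 18.8% of all genes. Atg3 (chr16:45158785-45188538, plus strand), the E2-like enzyme that passes ATG8 proteins to the lipid, had 55.9, 52.7 and 50.8 CPM in Rap cells and 61.97, 66.4 and 65.4 CPM in re-added cells. Atg3 had 40.8, 45.6 and 50.01 CPM in starved cells and 62.3, 60.7 and 60.2 CPM in control cells. Starved libraries were the lowest and re-added libraries overlapped those of control. Atg3 fell by 0.43 on the log2 scale in starved against control cells (SE 0.08, adjusted p = 0.0012), rose by 0.51 in re-added over starved cells (SE 0.08, adjusted p = 0.000349) and fell by 0.28 in Rap against re-added cells (SE 0.08, adjusted p = 0.0466). The last call was lost when any single Rap library, re-added replicate 2 or 3 or control replicate 1 was left out, at adjusted p-values of 0.058 to 0.186. Atg4a on chromosome X, a protease that primes ATG8 proteins, had 10.5, 9.88 and 11 CPM in Rap cells and 13.5, 10.3 and 9.64 CPM in re-added cells. Atg4a had 7.76, 8.61 and 8.63 CPM in starved cells and 14.3, 12.7 and 10.9 CPM in control cells. Starved libraries lay below all others, which overlapped. Atg4a fell by 0.60 in starved against control cells (adjusted p = 0.00698, and 0.069 in starved replicate 1 against control). Its rise of 0.42 in re-added over starved cells (adjusted p = 0.0437) was not called without re-added replicate 1 (0.27, adjusted p = 0.151), nor without re-added replicate 2 or any single starved or Rap library (adjusted p = 0.06 to 0.0948). The call was also lost with the replicate block (adjusted p = 0.0579) and with no filter on low counts (adjusted p = 0.0842). Limma on log2(TPM + 1) did not call it with or without the minimum (adjusted p = 0.0502 and 0.0895). Between libraries of like marker level, with a single starved library, the rise was 0.27 and was not called. Atg12 on chromosome 18, the ubiquitin-like protein joined to ATG5, had 41.4, 42.8 and 43.6 CPM in Rap cells and 36.8, 35.6 and 33.8 CPM in re-added cells. Atg12 had 45.3, 53.6 and 44.7 CPM in starved cells and 44.1, 38.2 and 33.5 CPM in control cells. Starved libraries were above all others, and re-added and control libraries overlapped. Atg12 fell by 0.44 in re-added against starved cells (adjusted p = 0.00587). Its rise of 0.31 in starved over control cells (adjusted p = 0.0324) was lost without control replicate 2 or 3, any single starved library or re-added replicate 1, at adjusted p-values of 0.0534 to 0.149. It was also lost with RLE factors (0.25), upper-quartile factors (0.16), no filter on low counts (0.28), the marker covariate (0.24), only the 6 libraries (0.27) and libraries of like marker level (0.25), at adjusted p-values of 0.052 to 0.28. Atg10, the E2-like enzyme of ATG12, fell by 0.48 in re-added against starved cells (adjusted p = 0.00462) and stayed below control in Rap cells at -0.46 (adjusted p = 0.00464). Atg4c was called in starved over control cells at 0.25 (adjusted p = 0.0338), a call kept in 8 of 23 alternatives and lost among others without control replicate 1 or 3, starved replicate 2 or 3 or any single re-added library (0.11 to 0.37 over all alternatives). Atg5, Atg7, Atg16l1, Atg4b and Atg4d, which hold the ATG12 conjugate, its E1-like enzyme, its membrane partner and proteases, were called in none of the 3 comparisons, with values between -0.31 (Atg5 in starved against control cells) and 0.30 (Atg5 in re-added over starved cells).

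The ATG8 family held Gabarapl1, which changed most of the 38 in re-added against starved cells and in starved over control cells was level with Wipi1 (1.36 and 1.35), beside members that were called in none of the 3 comparisons: 2 of 5 were called higher in starved over control cells, 3 of 5 lower in re-added against starved cells and 2 of 5 higher in Rap over re-added cells. Gabarapl1 (chr6:129533160-129542346, plus strand), an ATG8 protein of the GABARAP branch, had 142, 135 and 146 CPM in Rap cells and 66.3, 65.98 and 61.9 CPM in re-added cells. Gabarapl1 had 302, 341 and 319 CPM in starved cells and 132, 112 and 132 CPM in control cells. Starved libraries were above and re-added libraries below all others, and Rap libraries stood slightly above control. Gabarapl1 rose by 1.36 on the log2 scale in starved over control cells (SE 0.08, adjusted p = 4.7e-07), fell by 2.31 in re-added against starved cells (SE 0.08, adjusted p = 1.51e-08) and rose by 1.13 in Rap over re-added cells (SE 0.08, adjusted p = 1.1e-05). These are a 2.56-fold rise, a 4.95-fold fall and a 2.18-fold rise. Rap cells remained 2.27-fold below starved cells (log2 fold change -1.18, adjusted p = 1.41e-06). Map1lc3b (chr8:121590361-121598760, plus strand), which encodes LC3B, the common marker of autophagosomes, had 152, 158 and 168 CPM in Rap cells and 78.9, 78.2 and 73.8 CPM in re-added cells. Map1lc3b had 223, 269.7 and 241 CPM in starved cells and 178, 176 and 157 CPM in control cells. Its Rap and control libraries overlapped, with starved libraries above and re-added libraries below them. Map1lc3b rose by 0.52 on the log2 scale in starved over control cells (SE 0.08, adjusted p = 0.000467), fell by 1.67 in re-added against starved cells (SE 0.08, adjusted p = 1.08e-07) and rose by 1.05 in Rap over re-added cells (SE 0.08, adjusted p = 2.35e-05). Re-added cells were 2.21-fold below control cells (log2 fold change -1.14, adjusted p = 3.63e-06). Gabarap fell by 0.37 in re-added against starved cells (adjusted p = 0.0167), a call lost without re-added replicate 3, and Gabarapl2 and Map1lc3a were called in none of the 3 comparisons.

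The makeup of the family differed between the groups. Per length of exon, the summed level of the 5 genes was 1169 ± 16.4 TPM in Rap cells, 904.9 ± 18.5 TPM in re-added cells, 1511 ± 20.4 TPM in starved cells and 1107 ± 65.1 TPM in control cells (SD, n = 3 each). TPM divides counts by exon length and scales each library to 1 total, with no further scaling between libraries. Gabarapl1 made up 15.9 ± 0.362% of that sum in Rap cells, 10.1 ± 0.142% in re-added cells, 30.5 ± 0.558% in starved cells and 15.1 ± 3.04% in control cells. The starved libraries, at 29.8% to 30.8%, lay above the highest control library at 17.8%. Gabarap, the member with the highest level, made up 43.8% in Rap cells, 49.4% in re-added cells, 39.0% in starved cells and 46.3% in control cells. By TPM Map1lc3b was the smallest part in every group. It made up 4.80% in Rap cells, 3.22% in re-added cells, 6.21% in starved cells and 5.43% in control cells. That rank depends on exon length, which is 7517 bases for Map1lc3b and 1181 for Map1lc3a. In counted reads Map1lc3b was above Map1lc3a in every library, with 4625, 3247 and 3258 against 1287, 1168 and 1041 in control cells. These shares are descriptions and were not tested.

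**Figure D3:**
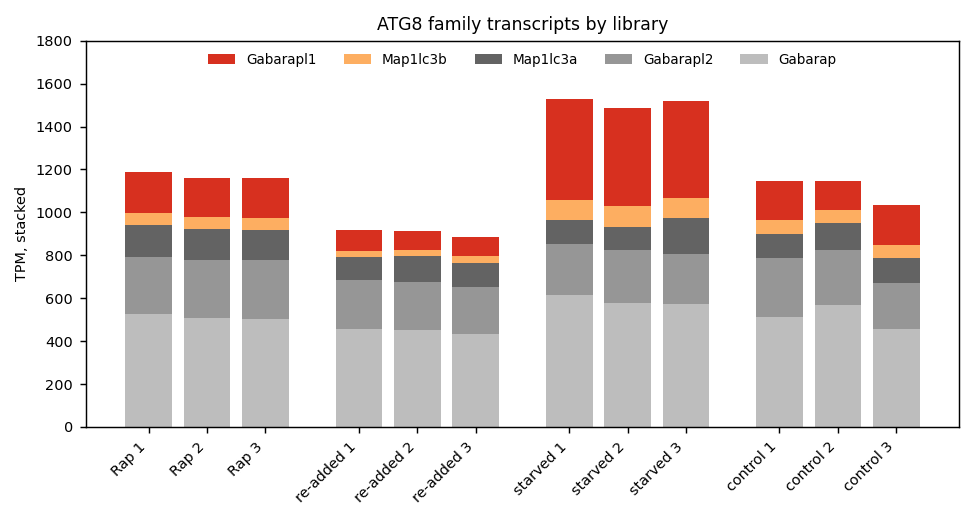
Stacked TPM of the 5 ATG8 genes in each library, Rap, re-added, starved and control cells left to right on a linear axis from 0. The red part, Gabarapl1, makes up 29.8% to 30.8% of the stack in the 3 starved libraries and 10.01% to 10.3% in the 3 re-added libraries.

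Paralogs in the other steps were set against each other on the same scale of TPM, as shares of their sum. Ulk1 made up 65.2 ± 1.23% in Rap cells, 52.99 ± 3.52% in re-added cells, 67.6 ± 0.634% in starved cells and 58.1 ± 0.849% in control cells (SD, n = 3 each) of the Ulk1 and Ulk2 sum. Rap and starved libraries lay above all control libraries, and re-added libraries below them. Atg2a made up 54.4 ± 0.647% in Rap cells, 47.4 ± 1.42% in re-added cells, 52.8 ± 1.60% in starved cells and 47.95 ± 3.93% in control cells (SD, n = 3 each) of the sum with Atg2b. Rap and starved libraries overlapped there and the control libraries spread across the range of the re-added libraries. In the Atg4 family of 4 proteases Atg4b and Atg4d were the larger parts in every group. Atg4c made up 21.6 ± 0.684% in Rap cells, 20.2 ± 0.727% in re-added cells, 18.7 ± 0.240% in starved cells and 15.1 ± 0.308% in control cells (SD, n = 3 each), and its control libraries lay below all others. Atg4a made up 14.6 ± 0.403% in Rap cells, 15.3 ± 2.25% in re-added cells, 11.6 ± 0.433% in starved cells and 16.8 ± 1.47% in control cells (SD, n = 3 each), and its starved libraries lay below all others. These shares, too, were not tested.

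Of the 5 cargo receptors, 4 were called higher in starved over control cells, 4 lower in re-added against starved cells and 3 higher in Rap over re-added cells. Sqstm1 (chr11:50199366-50210827, minus strand), which encodes p62, the receptor of ubiquitin-tagged cargo that is itself degraded by autophagy, had 588, 594 and 587 CPM in Rap cells and 484, 488 and 485 CPM in re-added cells. Sqstm1 had 825, 956 and 921 CPM in starved cells and 529, 585 and 518 CPM in control cells. Starved libraries were above all others. Sqstm1 rose by 0.73 on the log2 scale in starved over control cells (SE 0.07, adjusted p = 1.8e-05), fell by 0.89 in re-added against starved cells (SE 0.07, adjusted p = 2.91e-06) and rose by 0.28 in Rap over re-added cells (SE 0.07, adjusted p = 0.0325). The last call was lost without re-added replicate 1, 2 or 3 or any single Rap library, at adjusted p-values of 0.0621 to 0.119. Nbr1 (chr11:101552149-101581951, plus strand), a receptor that works beside p62, had 239, 240.1 and 219.8 CPM in Rap cells and 144, 147 and 152 CPM in re-added cells. Nbr1 had 254, 295 and 271 CPM in starved cells and 162, 141 and 189.6 CPM in control cells. Rap and starved libraries lay above all re-added and control libraries. It changed by 0.73, -0.89 and 0.66 in the 3 comparisons in turn (adjusted p = 0.000173, 3.57e-05 and 0.00191). Calcoco1 (chr15:102706779-102722178, minus strand), a receptor known for turnover of the endoplasmic reticulum, had 67.8, 65.2 and 68.3 CPM in Rap cells and 32.6, 29.8 and 27.5 CPM in re-added cells. Calcoco1 had 79.5, 89.6 and 85.2 CPM in starved cells and 50.5, 54.6 and 61.1 CPM in control cells. No group overlapped another. Calcoco1 rose by 0.62 on the log2 scale in starved over control cells (SE 0.09, adjusted p = 0.000212), fell by 1.50 in re-added against starved cells (SE 0.09, adjusted p = 3e-07) and rose by 1.16 in Rap over re-added cells (SE 0.09, adjusted p = 1.67e-05). Optn (chr2:5020642-5064051, minus strand), the receptor optineurin, had 20.2, 17.9 and 20.1 CPM in Rap cells and 21.4, 19.3 and 18.97 CPM in re-added cells. Optn had 27.9, 31.4 and 28.4 CPM in starved cells and 20.6, 17.6 and 18.9 CPM in control cells. Its starved libraries were above all others, which overlapped. It rose by 0.62 in starved over control cells (adjusted p = 0.000327) and fell by 0.56 in re-added against starved cells (adjusted p = 0.000591), and in Rap over re-added cells it had -0.04 (adjusted p = 0.852). Tax1bp1 was called in none of the 3 comparisons and was 1.42-fold higher in Rap than in control cells (adjusted p = 0.00137). Per length, Sqstm1 had the highest level of the receptors at 466 ± 15.01 TPM in Rap cells, 412 ± 5.53 TPM in re-added cells, 776 ± 7.28 TPM in starved cells and 430.1 ± 4.94 TPM in control cells (SD, n = 3 each), and Optn the lowest at 13.7 ± 0.900 TPM in Rap cells, 15.1 ± 1.02 TPM in re-added cells, 22.5 ± 0.874 TPM in starved cells and 13.5 ± 1.90 TPM in control cells (SD, n = 3 each).

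Rap cells were also set against starved cells, to see which genes differed between 3 h of amino acids with Rap and 16 h without amino acids. Of the 38 genes 5 were called higher in Rap cells, against 20.2% of all genes, and 11 lower, against 23.9%, with a median of -0.16 over the 38 and -0.03 over all. The 5 higher genes were Atg13, Wipi2, Atg3, Gabarapl2 and Tax1bp1, and the 11 lower ones included Gabarapl1 at -1.18, Uvrag at -0.79, Map1lc3b at -0.62, Sqstm1 at -0.61, Optn at -0.59 and Ulk1 at -0.55. On TPM, tested with limma, the split was 1 higher and 19 lower, and between Rap cells and starved replicate 2 it was 2 higher and 8 lower. Over all 16793 genes tested with limma on log2(TPM + 1) with the minimum, 2373 were higher and 3927 lower in Rap against starved cells. Their median log2 fold change was -0.12. Gabarapl1, Map1lc3b, Sqstm1, Uvrag, Optn and Ulk1 were called lower in Rap than in starved cells under all 23 alternatives. Atg13 was called higher in 22 of 23 alternatives, all but limma without a minimum. The number called higher was 1 without starved replicate 1, Rap replicate 1 or Rap replicate 2, it was 2 without Rap replicate 3, and 3 without re-added replicate 2 or 3.

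Against control, 3 of the 38 genes were called higher in re-added cells, against 24.8% of all genes, and 12 lower, against 24.5%, with a median of -0.13 over the 38. Map1lc3b, Gabarapl1, Calcoco1, Wdr45, Ulk1 and Atg101 lay 2.21, 1.94, 1.85, 1.78, 1.66 and 1.65-fold below control, all with adjusted p-values of at most 0.000898. In Rap against control cells 14 were called higher, against 27.7% of all genes, and 5 lower, against 25.3%, with a median of 0.14. Leaving out control replicate 3 gave 5 higher calls in re-added cells, and leaving out Rap replicate 2 gave 3 lower calls in Rap cells. Wipi1 at 1.19, Atg13 at 0.98 and Atg14 at 0.76 led the higher ones. On TPM with the minimum, tested with limma, the split in re-added against control cells was 4 higher and 8 lower. Over all 16793 genes tested so on log2(TPM + 1), 5183 were higher and 3355 lower. Marker sums of other cells differ between these groups in every library. The ranges of control cells do not overlap those of re-added or Rap cells. A fit with the marker sum as covariate therefore separates group and marker sum poorly, and why calls were lost in it was not tested. With that sum as a covariate 0 of the 38 genes were called higher and 9 lower in re-added against control cells. Of all 16844 tested genes 1281 were higher and 1316 lower in that fit, against 4172 and 4132 without the covariate. In Rap against control cells 3 of the 38 were higher and 3 lower with the covariate. Over all genes these were 1047 and 993, against 4672 and 4255 without it. Ambra1, called higher in both comparisons without the covariate, was called in neither with it. With the covariate Wipi1 had 0.93 (adjusted p = 0.000673), Atg13 0.88 (adjusted p = 0.00119) and Atg14 0.76 (adjusted p = 0.0104) in Rap over control cells, and Map1lc3b had -1.27 (adjusted p = 1.47e-05) and Gabarapl1 -1.03 (adjusted p = 8.72e-05) in re-added against control cells.

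**Figure D4:**
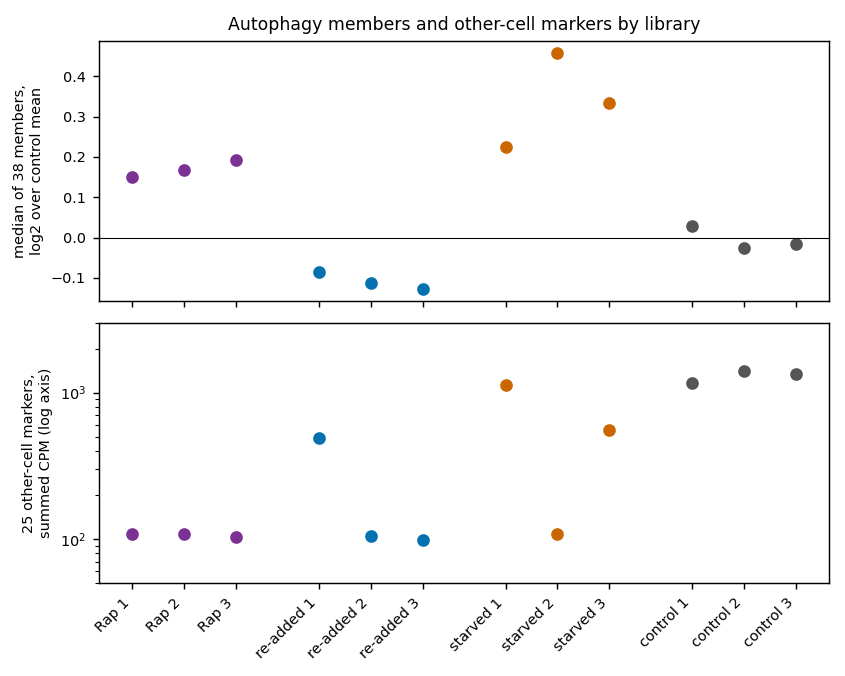
Upper panel: the median over the 38 genes of the log2 level in each library relative to the mean of the control libraries. Lower panel: the summed CPM of 25 fibroblast, leukocyte and endothelium markers in the same libraries, on a log axis. The 3 starved libraries have the highest medians (0.22, 0.46 and 0.33), and their marker sums run from 108.1 to 1129 CPM, and re-added replicates 2 and 3 lie below the Rap libraries at like marker sums.

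Library by library, the median of the 38 genes relative to the control mean was 0.15, 0.17 and 0.19 in Rap cells, -0.09, -0.11 and -0.13 in re-added cells, 0.22, 0.46 and 0.33 in starved cells and 0.03, -0.03 and -0.02 in control cells. The 4 groups did not overlap. Among starved libraries replicate 2, with the lowest marker sum, had the highest median, and replicate 1, with the highest marker sum, the lowest. The part of those markers in the values of the 38 genes was not tested beyond the alternatives given.

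Other genes of the pathway were taken from lists. Among 29 fusion and accessory genes 14 were called higher and 4 lower in starved against control cells, 2 higher and 13 lower in re-added against starved cells, and 3 higher and 2 lower in Rap against re-added cells. The shares called among all genes, in the same order, were 24.3% and 14.6%, 18.4% and 18.8%, and 4.55% and 3.43%. In starved against control cells the counts were 5 higher and 3 lower between libraries of like marker level and 8 higher and 4 lower with only the 6 libraries. Between libraries of like marker level 7 were lower in re-added against starved cells. Trp53inp1, which binds ATG8 proteins, had 30.3, 32.1 and 34.2 CPM in Rap cells and 22.6, 19.01 and 21.9 CPM in re-added cells. Trp53inp1 had 45.7, 54.2 and 45.8 CPM in starved cells and 23.5, 23.4 and 24.5 CPM in control cells. Its changes of 1.03, -1.20 and 0.60 were all called (adjusted p = 1.14e-05, 2.72e-06 and 0.00227). Zfyve1, which encodes DFCP1, a marker of the membrane sites where autophagosomes form, changed by 0.73, -0.85 and 0.53 (adjusted p = 4.4e-05, 1.04e-05 and 0.00202). Stx17, the SNARE by which autophagosomes fuse with lysosomes, fell by 0.88 in re-added against starved cells (adjusted p = 3.18e-05), and Rubcn, which encodes the inhibitor Rubicon, rose by 0.71 in starved over control cells (adjusted p = 0.000554). Without re-added replicate 2 there were 8 lower calls in re-added against starved cells, and without re-added replicate 2 or 3 or Rap replicate 2 there was 1 lower call in Rap against re-added cells. Atg9b, the paralog of Atg9a, averaged 3.87 CPM in Rap and 6.86 CPM in re-added cells and fell by 0.82 (adjusted p = 0.0116), a call that was lost without re-added replicate 2 or 3 or Rap replicate 2.

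Of 20 receptors for organelles 8 were called higher and 4 lower in starved against control cells, 2 higher and 7 lower in re-added against starved cells, and 6 higher and 2 lower in Rap against re-added cells. The shares of all genes are those given above. The counts in starved against control cells depended on the setting: with upper-quartile factors 6 were higher and 6 lower, with the marker covariate 5 and 3, and they were 4 and 4 with only the 6 libraries, and 3 and 3 between libraries of like marker level. In Rap against re-added cells the higher calls numbered 3 without re-added replicate 3 or Rap replicate 3, and the lower calls 0 without re-added replicate 2 or 3 or Rap replicate 1 or 2, and 1 without re-added replicate 1 or Rap replicate 3. Bnip3, a mitochondrial receptor, had the largest called change of these 20 in starved against control cells, with 90.5, 100.1 and 107 CPM in Rap cells and 106, 109.9 and 98.1 CPM in re-added cells. Bnip3 had 83.4, 104 and 64.6 CPM in starved cells and 515, 475 and 311 CPM in control cells. Control libraries stood above all 9 others, which overlapped, and starved cells were 5.18-fold below control (log2 fold change -2.37, SE 0.19, adjusted p = 4.62e-06). Its relative Bnip3l, which encodes NIX, had 149.8, 167 and 163 CPM in Rap cells and 83.03, 79.3 and 79.4 CPM in re-added cells. Bnip3l had 153, 177 and 148 CPM in starved cells and 227, 165 and 164 CPM in control cells. It fell by 0.98 in re-added against starved cells (adjusted p = 6.74e-05) and rose by 0.99 in Rap over re-added cells (adjusted p = 0.000473), without a call in starved against control cells (adjusted p = 0.162). Retreg3, a receptor of the endoplasmic reticulum, changed by -1.22 and 0.58 in the same comparisons (adjusted p = 1.79e-06 and 0.00226). Pink1, the kinase that flags damaged mitochondria, rose by 0.74 in Rap over re-added cells (adjusted p = 0.000775). In starved over control cells Ccpg1, a receptor of the endoplasmic reticulum, rose by 1.23 (adjusted p = 0.000586) and Wdfy3, which encodes the aggregate adaptor ALFY, by 0.98 (adjusted p = 0.00248), the Wdfy3 call being lost between libraries of like marker level. Stbd1, a receptor for glycogen, fell by 0.88 in re-added against starved cells (adjusted p = 0.000237).

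Among 8 transcription factors known to act on autophagy genes 5 were called higher and none lower in starved over control cells, none higher and 4 lower in re-added against starved cells, and 2 higher and 1 lower in Rap against re-added cells. The all-gene shares are those given above. In starved over control cells 3 were called higher with upper-quartile factors, with the marker covariate, with only the 6 libraries and between libraries of like marker level, and without control replicate 2, starved replicate 2 or starved replicate 3. In Rap against re-added cells limma called 0 higher and 2 lower under its 3 settings, and between libraries of like marker level the counts were also 0 and 2. The 2 higher calls there became 0 without re-added replicate 1 or 2 or Rap replicate 1, and 1 without any other library but control replicate 2. The lower calls there were 2 without control replicate 2 or 3, re-added replicate 1 or any single starved library. Foxo3 had 54.1, 56.8 and 49.3 CPM in Rap cells and 32.98, 35.3 and 40.2 CPM in re-added cells. Foxo3 had 63.5, 69.7 and 67.5 CPM in starved cells and 33.8, 32.9 and 45.9 CPM in control cells. It changed by 0.83, -0.89 and 0.56 (adjusted p = 0.000311, 0.000169 and 0.0162). The last call was lost without re-added replicate 1 or 2 or Rap replicate 1 or 2, with values of 0.43 to 0.65 over all alternatives. Atf4, the factor of the amino acid response, had 199, 178 and 199 CPM in Rap cells and 306, 311 and 293 CPM in re-added cells. Atf4 had 386, 472 and 427 CPM in starved cells and 251, 276 and 225 CPM in control cells. Like Atg3 and unlike the 13 autophagy genes called higher there, it was lower in Rap than in re-added cells, with changes of 0.77, -0.50 and -0.66 (adjusted p = 8.51e-05, 0.00146 and 0.0013). Ddit3, a target and partner of ATF4 that encodes CHOP, rose by 1.23 in starved over control cells (adjusted p = 5.63e-07) and fell by 0.46 in re-added against starved cells (adjusted p = 0.000472). The levels of these transcripts say nothing of the activity of the factors.

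Strand use in the counting is not given, and 12 of the 38 genes share exon bases with another gene, so their reads cannot be told apart with certainty. All 818 shared bases of Wdr45, all 92 of Vmp1 and 1832 of 1878 of Atg9a lie on the strand of the other gene, where strand use would not separate them. In the rest of the 12 the shared bases lie on the opposite strand. The share of exon bases is 43.9% for Becn1, 32.6% for Atg9a, 28.3% for Gabarapl1, 24.7% for Wdr45, 19.3% for Atg4d, 17.6% for Uvrag and 17.3% for Sqstm1, and at most 3.80% for the other 5.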

How the data were processed

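Raw read counts per gene were deposited by the authors, 1 table per library. The submitters' processing notes list GRCm38.p6, limma 3.46.0 and Subread 2.0.1. The sources used here name no aligner and no strand setting. The authors also deposited TPM values with gene names, which 174 genes lack. Counts over exon length, rescaled, give these values within 5e-05. Counts were fitted with edgeR 4.0.16 in R 4.3.3: filterByExpr (minimum count 10, minimum total 15) kept 16844 of 49315 genes, holding 99.92% of counts, libraries were scaled by TMM, and 12 libraries entered 1 quasi-likelihood fit of 4 group means with 8 residual degrees of freedom. CPM use TMM-scaled totals, except marker sums, which use raw totals. The libraries hold 18555958 to 25631056 counted reads, and the test's error holds both counting error and the spread between replicates.

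Genes given library by library were, in each step, those called in at least 2 of the 3 main comparisons, at most 4 a step, by summed absolute log2 fold change, with genes called once filling up to 2 where fewer qualified. Of each other list and comparison up to 3 called genes with a mean of at least 5 CPM in 1 of the groups were named, by absolute log2 fold change. The 38 genes, the lists and the tests were chosen with earlier results of these data known. Alternatives were other scalings, no filter on low counts, DESeq2 1.42.0, limma 3.58.1 on log2(TPM + 1) or log2(TPM + 0.1) with a minimum of 1 TPM or none, a replicate block, the marker sum as covariate, libraries of like marker level, only the 6 libraries compared, and each library left out. The main edgeR fit, DESeq2, limma on log2(TPM + 1) with the minimum and the replicate block were tested on simulated counts. This was done for starved against control cells alone, and the other alternatives were not tested so. Same-numbered libraries deviated together only in re-added against starved cells, there for replicates 1 and 2 and not for replicate 3. The numbers were therefore not taken to pair the libraries.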

Additional observations from a re-analysis of the deposited data

How the results depend on the processing

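The medians of the 38 genes kept their sign in the 3 main comparisons under every alternative. Of 1449 values of the 21 genes given library by library, 1362 kept direction and side of the threshold, 61 lost the call, 10 gained it and 16 turned direction, all 16 of genes not called. Counts of calls over all genes also differed between the settings. In Rap against re-added cells 766 of 16844 genes were higher and 578 lower in the main fit. With only the 6 libraries 1829 of 15187 were higher and 2130 lower. The counts of calls among the 38 genes moved by over 1.5 times as follows, and the cause was not tested. In starved against control cells 14 were higher between libraries of like marker level, and 6 (upper-quartile factors) or 5 (DESeq2) were lower. In re-added against starved cells 1 was higher with limma without a minimum, between libraries of like marker level and with the replicate block. In Rap against re-added cells 22 were higher and 3 lower with only the 6 libraries, 2 lower with DESeq2 and with limma above the minimum, and 0 lower with the replicate block. In Rap against starved cells 1 was higher and 19 lower with limma above the minimum, 0 higher with limma without a minimum, 1 higher with the marker covariate, 2 higher between libraries of like marker level, and 18 lower with only the 6 libraries. Against control, re-added cells had 0 higher with the marker covariate and 7 lower with limma without a minimum, and Rap cells 3 higher and 3 lower with the covariate. Fits between libraries of like marker level were not run against control for re-added or Rap cells. Leaving out 1 library gave 16 to 22 higher and 3 to 5 lower in starved against control, 1 to 4 and 20 to 23 in re-added against starved, 12 to 19 and 0 to 1 in Rap against re-added, 1 to 5 and 8 to 15 in Rap against starved, 3 to 5 and 9 to 13 in re-added against control, and 13 to 16 and 3 to 6 in Rap against control cells.

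With the replicate number as a block the calls were 21 higher and 4 lower in starved against control, 1 higher and 22 lower in re-added against starved, and 13 higher and 0 lower in Rap against re-added cells. Correlations of same-numbered deviations were 0.837, 0.711 and -0.306 in re-added against starved cells and at most 0.105 in the other comparisons. Some values of uncalled genes turned direction. Atg101 in starved against control cells had -0.001755 with upper-quartile factors. In Rap against re-added cells Atg4a had 0.04743 between libraries of like marker level (which is the fit without re-added replicate 1) and -0.1849 to 0.04743 leaving out 1 library, and Optn had -0.06888 to 0.0174 leaving out 1 library. Uvrag, at 0.02 in the same comparison, had -0.01604 with no filter, -0.08073 with log2(TPM + 1) with and without the minimum, -0.08663 with log2(TPM + 0.1), -0.04289 with the covariate, -0.01396 with only the 6 libraries, -0.02287 between libraries of like marker level, and -0.02287 to 0.04559 leaving out 1 library.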
